A study of Mus musculus with 20 samples.

Results

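*Ccnd1*, *Ccnd2* and *Ccnd3* encode the D-type cyclins, and these 3 genes are described here out of 14924 genes with counts of total and polysomal RNA and 9621 genes with 3′ end counts. The family was chosen by gene symbol with the measured values of these files in view, and the value that sets it apart is the 3′ end count of *Ccnd2*. The values of its members are therefore given as a description, with their errors and without a test.

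D-type cyclins are the regulatory subunits through which growth signals enter the cell cycle. They bind the kinases Cdk4 and Cdk6, and the complexes phosphorylate the retinoblastoma protein, which releases E2F transcription factors and allows cells to pass from G1 into S phase. Their mRNAs and proteins turn over quickly, and the 3′ UTRs of many short-lived mRNAs carry AU-rich elements that ELAV proteins recognize. HuD, the product of *Elavl4*, is an ELAV protein of neurons, and neurons leave the cell cycle as they differentiate.

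The cells were NSC-34, a mouse line with features of motor neurons, made to express the tetracycline repressor (Trex cells). HuD cells also carried an inducible lentiviral transgene for human HuD with a His-HA tag, which the control Trex cells of CRAC lacked. The study's text does not say whether the control cells of the sequencing of total, polysomal and 3′ end RNA carried it. For RNA-Seq of total RNA and POL-Seq of polysomal RNA, 2 libraries came from HuD cells given 2 μg/ml tetracycline for 48 h and 2 from control cells. For 3′ end sequencing, which counts reads at annotated polyadenylation sites, there were 3 libraries of each kind after the same induction. For CRAC, which maps RNA crosslinked to the tagged protein, 3 libraries came from HuD cells and 3 from control Trex cells, both given 10 μg/ml for 24 h. The labels do not say whether the control cells of the other experiments received the drug, and the study's text also names doxycycline for the induction. For CRAC its methods give the dose and time of the labels, while its results text gives 2 μg/ml for 48 h. Its methods call the RNA-Seq and POL-Seq libraries biological duplicates and the 3′ end libraries biological triplicates. No source used here says whether the HuD line is 1 clone.

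The libraries held between 21296012 and 36284728 counts for total and polysomal RNA, and between 10154407 and 12295080 counts at 11338 merged sites for 3′ ends. The induced gene was the human transgene, and no source used here says how far its reads were counted for mouse *Elavl4*. *Elavl4* had 78.3 and 97.4 CPM (counts per 1000000 counts of the library) in total RNA of control cells. In HuD cells it had 237 and 212 CPM, and the groups did not overlap. Its log2 change was 1.35 ± 0.15 (SE, n = 2 and 2, adjusted p = 0.0866 in edgeR's quasi-likelihood test), and in polysomal RNA, with 90.3 and 118 CPM against 243 and 225 CPM, it was 1.17 ± 0.15 (adjusted p = 0.282). At its 3′ ends *Elavl4* did not rise, with 95.9, 47.1 and 96.7 CPM in control libraries and 67.1, 39.2 and 64.3 CPM in those labelled HuD. The log2 change there was -0.49 ± 0.29 (n = 3 and 3, adjusted p = 0.922), and -0.46 ± 0.10 (adjusted p = 0.0269) with the replicate number as a block. No source used here says whether the transgene's transcript ends at the site of the mouse gene, so 3′ ends do not check these labels. Of 7 neuronal markers 6 were above 10 CPM over the 8 libraries of total and polysomal RNA, from *Map2* at 47.9 CPM to *Tubb3* at 603 CPM, while *Stmn2* was at 0.30 CPM. Of the motor neuron markers *Isl1* was at 41.1 CPM and *Chat*, which makes acetylcholine, at 0.53 CPM, while *Mnx1* was not among the genes listed with counts. The markers of astrocytes, microglia and fibroblasts were not listed either, except *Gfap* at 0.48 CPM. That a gene was not listed does not show that its RNA was absent. The oligodendrocyte gene *Mbp* was at 5.76 CPM.

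The 3 genes lie on different chromosomes of GRCm38. *Ccnd1* (ENSMUSG00000070348) spans chr7:144929931-144939925 on the minus strand. *Ccnd2* (ENSMUSG00000000184) spans chr6:127125162-127152193 on the minus strand. *Ccnd3* (ENSMUSG00000034165) spans chr17:47505051-47599691 on the plus strand. Most 3′ end reads of each gene were counted at the end of the 3′ UTR of a protein coding transcript. The last 30 bases of each transcript are shown because the 3′ end counts below were taken there, and capitals mark AATAAA, the canonical polyadenylation signal, searched on the transcript strand in GENCODE vM21.
Ccnd1, chr7:144929931-144929960, minus strand: aatctagaaAATAAAattggtaaaatctca
Ccnd2, chr6:127125162-127125191, minus strand: tttggacAATAAActcaccttgacctacaa
Ccnd3, chr17:47599662-47599691, plus strand: gctgccttAATAAAgatttcggAATAAAgg
The hexamer ended 15 nt before the last base of *Ccnd1* and 17 nt before that of *Ccnd2*. *Ccnd3* held it at 16 nt and again at 2 nt from the end. Of 18407 listed transcripts found in the annotation, 60.5% held AATAAA in their last 30 bases.

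*Ccnd2* had 1 listed 3′ end, and few reads reached it in control cells. The 3 control libraries held 7, 3 and 10 counts there, or 0.57, 0.28 and 0.81 CPM. The libraries labelled HuD held 91, 204 and 129 counts, or 8.65, 17.9 and 11.0 CPM. Every library labelled HuD was above every control library, and the lowest of the former was 10.7 times the highest of the latter. The log2 change was 4.45 ± 0.41 (SE, n = 3 and 3), a 21.9-fold difference with a 95% interval of 11.5 to 41.8, and 4.40 ± 0.30 with the replicate number as a block. It was the highest log2 change of the 9621 genes, and the next, that of *Svil*, was 2.62 ± 0.42.

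*Ccnd1* and *Ccnd3* had many more 3′ end reads, and these were alike in both groups. *Ccnd1* stood at 169, 213 and 166 CPM in control libraries and at 177, 202 and 172 CPM in libraries labelled HuD, with a log2 change of 0.01 ± 0.14 (95% interval -0.31 to 0.32). *Ccnd3* stood at 365, 430 and 403 CPM against 398, 421 and 406 CPM, with a log2 change of 0.03 ± 0.11 (95% interval -0.22 to 0.28). In both genes all 3 values labelled HuD lay inside the range of the control values. As folds the intervals ran from 0.81 to 1.25 for *Ccnd1* and from 0.86 to 1.22 for *Ccnd3*, and changes within them were not detectable here.

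Of the 3 members, 1 had 3′ end counts that did not overlap between the groups, which was so for 11.9% of all genes. At an adjusted p under 0.05, 1 of the 3 was called in edgeR, against 0.0416% of all genes, and 1 with the replicate block, against 2.61%. These are the values with which the family was chosen, and nothing is read from the counts. The call of *Ccnd2* was lost without control replicate 1, when its log2 change was 4.46 ± 0.54. The other 3 genes called, named after their values were seen, had lower 3′ end counts in the libraries labelled HuD. They were *Armcx2* at a log2 change of -6.60, *Nqo1* at -3.50 and *Dap* at -1.68, against -0.14, -0.28 and -0.15 in total RNA.

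**Figure D1:**
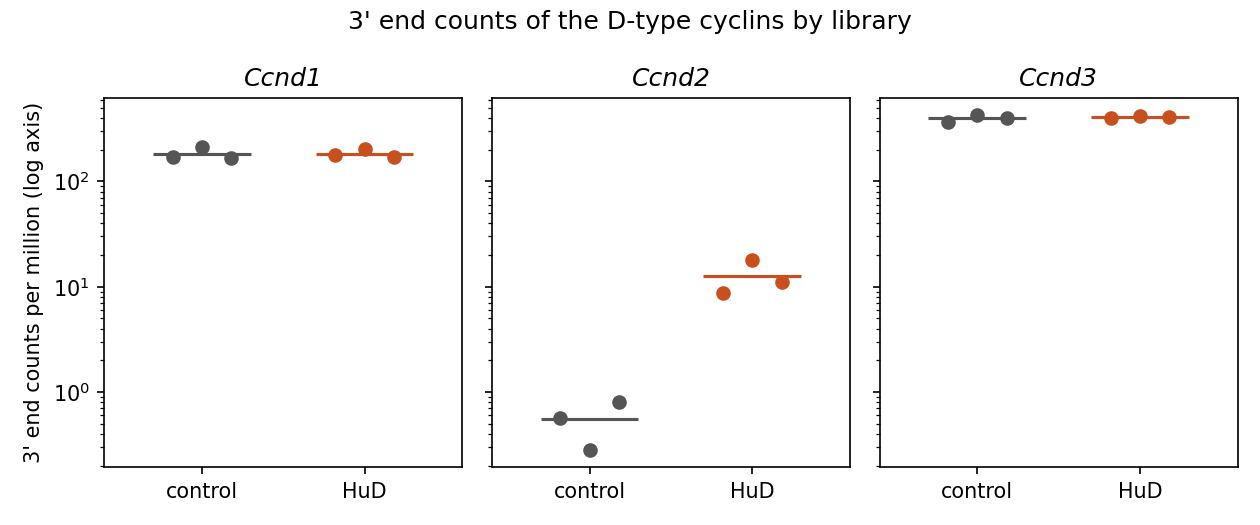
3′ end CPM of Ccnd1, Ccnd2 and Ccnd3 on a log axis, with a point for each of 3 control libraries (grey) and 3 libraries labelled HuD (orange) and a line at the group mean. Ccnd2 lies between 0.28 and 0.81 CPM in control libraries and between 8.65 and 17.9 CPM in those labelled HuD, while the groups overlap for Ccnd1 and Ccnd3.

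*Ccnd3* was the only member with a further listed 3′ end. It lies at chr17:47507910, in the first intron of the protein coding transcript, where a transcript annotated as a retained intron ends. This site held 28, 52 and 38 counts in control libraries and 21, 38 and 35 in libraries labelled HuD. Its share of the *Ccnd3* counts was 0.84% ± 0.26 (SD, n = 3) in control libraries and 0.68% ± 0.15 in those labelled HuD, and the groups overlapped. The remaining counts fell on a cluster of 3 listed sites between 47599683 and 47599691, taken as 1 end because reads within 10 nt of a site were counted for it. In the test of site usage 0 of the 3151 sites passed the threshold (0%). *Ccnd1* and *Ccnd2*, with 1 site each, could not enter that test. The 3′ end of *Bysl*, on the minus strand, lies 360 nt upstream of the end of *Ccnd3*, within its last exon. The RNA-Seq kit keeps the strand, but no source used here says whether the counting used it, so reads of both genes from the overlap may not be told apart.

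In total RNA *Ccnd2* did not differ as its 3′ end counts did, while *Ccnd1* and *Ccnd3* had log2 changes near 0 in both. *Ccnd2* was at 10.1 and 14.3 CPM in control cells and at 9.72 and 15.3 CPM in HuD cells, so that the groups overlapped fully. Its log2 change was 0.04 ± 0.32 (SE, n = 2 and 2), with a 95% interval of 0.62-fold to 1.70-fold. The 3′ end value is the one with which the family was chosen, and the libraries were made differently. The difference between the assays was not tested. *Ccnd1* was at 888 and 1066 CPM in control cells and 905 and 1036 CPM in HuD cells, a log2 change of -0.01 ± 0.14. *Ccnd3* was at 99.4 and 93.1 CPM against 93.1 and 87.3 CPM, a log2 change of -0.09 ± 0.13, with ranges that met at 93.1 CPM. Of the 3 members 0 passed the threshold in total RNA, as did 0% of the 14906 genes tested.

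**Figure D2:**
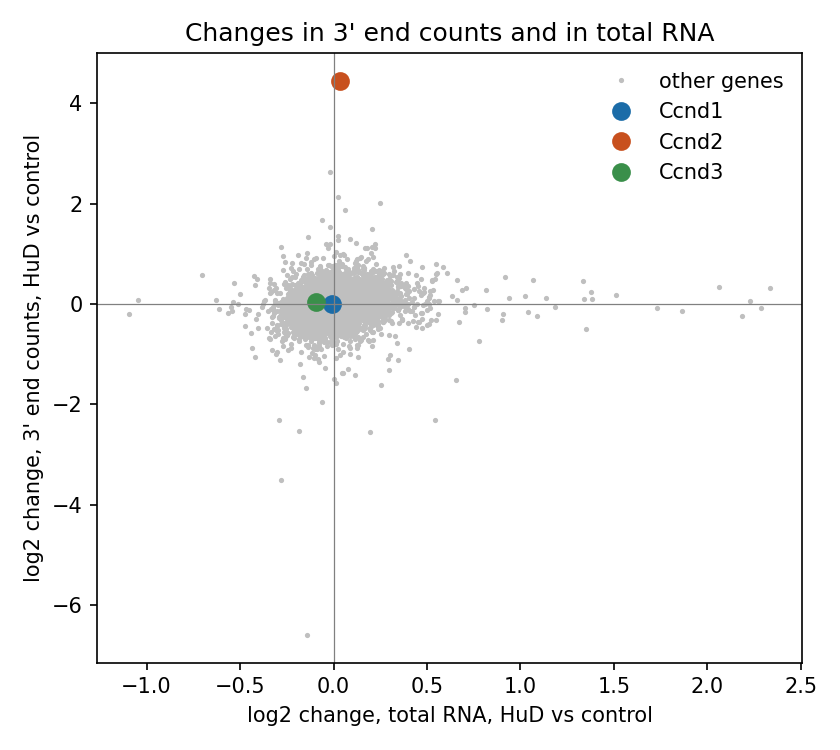
Log2 change with HuD in total RNA (x axis) against that in 3′ end counts (y axis) for genes measured in both (grey points) and for the D-type cyclins (coloured). Ccnd2 lies at 4.45 on the y axis and 0.04 on the x axis, above all other genes, while Ccnd1 and Ccnd3 lie near 0 on both.

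The 3′ end count of *Ccnd2* in control cells was low for its level in total RNA. Its mean 3′ end CPM over its mean CPM in total RNA was 0.045 in control cells and 1.00 in HuD cells. Among 9399 genes with both values, the median of that ratio in control cells was 0.56, and 3.80% of genes were below *Ccnd2*. For *Ccnd1* the ratio was 0.187 in control and 0.189 in HuD cells, and for *Ccnd3* it was 4.15 and 4.53. Reads of total RNA fall along the whole transcript and 3′ end reads only at its end, so the ratio also moves with transcript length. Only reads near listed sites were counted, and *Ccnd2* has 1, so reads at an unlisted end would be missing from its count.

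Polysomal RNA, the mRNA engaged by several ribosomes, gave a similar picture. *Ccnd1* was at 970 and 1161 CPM in control cells and 1024 and 1189 CPM in HuD cells, a log2 change of 0.05 ± 0.14. *Ccnd2* was at 10.0 and 16.5 CPM against 11.3 and 19.0 CPM, a log2 change of 0.20 ± 0.32. *Ccnd3* was at 91.6 and 66.8 CPM against 81.0 and 79.9 CPM, a log2 change of 0.02 ± 0.13. The groups overlapped for *Ccnd1* and *Ccnd2*, and for *Ccnd3* both HuD values lay between the control values. Of the 3 members 0 passed the threshold, as did 0% of all genes.

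Translation efficiency (TE), the ratio of polysomal to total RNA, differed little between HuD and control cells. The log2 change in TE was 0.06 ± 0.20 for *Ccnd1*, 0.17 ± 0.46 for *Ccnd2* and 0.11 ± 0.19 for *Ccnd3*. The 95% interval of *Ccnd2* ran from 0.55-fold to 2.29-fold, the widest of the family. With the replicate number as a block its log2 change in TE was 0.16 ± 0.13. In the TE test 0 members and 0% of all genes passed the threshold.

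In control cells *Ccnd3* was the member with less RNA on polysomes than in the total. Its total RNA values of 99.4 and 93.1 CPM lay above its polysomal values of 91.6 and 66.8 CPM, a log2 difference of -0.28 ± 0.13. In HuD cells the values of 93.1 and 87.3 CPM also lay above those of 81.0 and 79.9 CPM. For *Ccnd1* and *Ccnd2* the log2 differences in control cells were 0.13 ± 0.14 and 0.10 ± 0.33, with groups that overlapped. Values that did not overlap between the fractions were found for 39% of all genes in control cells and 49.8% in HuD cells, so 1 of 3 members is no larger a share. At an adjusted p under 0.05, 0 of the 3 members and 0.174% of all genes differed between the fractions. The value of *Ccnd3* was -0.08 ± 0.09 without control polysomal replicate 2, and without control polysomal replicate 1 it was called at -0.53 ± 0.09, when 2145 genes were called.

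**Figure D3:**
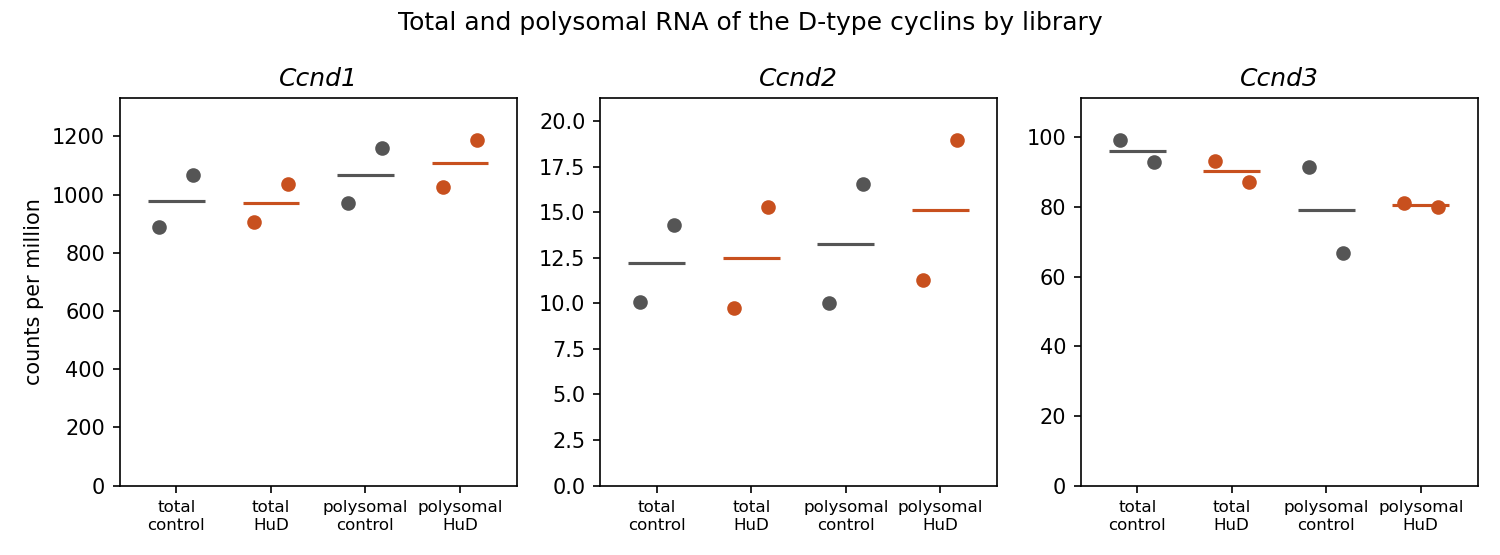
CPM of Ccnd1, Ccnd2 and Ccnd3 in total and polysomal RNA on axes that start at 0, with a point for each of 2 libraries of control (grey) and HuD cells (orange) and a line at the group mean. For Ccnd1 and Ccnd2 the lower and the higher points of the groups sit at like heights in all 4 groups, and for Ccnd3 the total RNA points sit above the polysomal points within control cells and within HuD cells.

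In total and polysomal RNA *Ccnd1* and *Ccnd2* differed more between the libraries numbered 1 and 2 than between HuD and control cells. *Ccnd2* in replicate 2 was 1.41 and 1.57 times its level in replicate 1 in total RNA of control and HuD cells, and 1.65 and 1.69 times in polysomal RNA. For *Ccnd1* the ratios were 1.20, 1.14, 1.20 and 1.16. *Ccnd3* was lower in replicate 2 in all 4 groups, with ratios of 0.936, 0.938, 0.729 and 0.986. Of all genes, 19.9% were higher in replicate 2 in all 4 groups, and 15 genes (0.101%), *Ccnd2* among them, were so by over 1.4 times, a limit set after its values were seen. The part of this in the results was not tested.

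**Figure D4:**
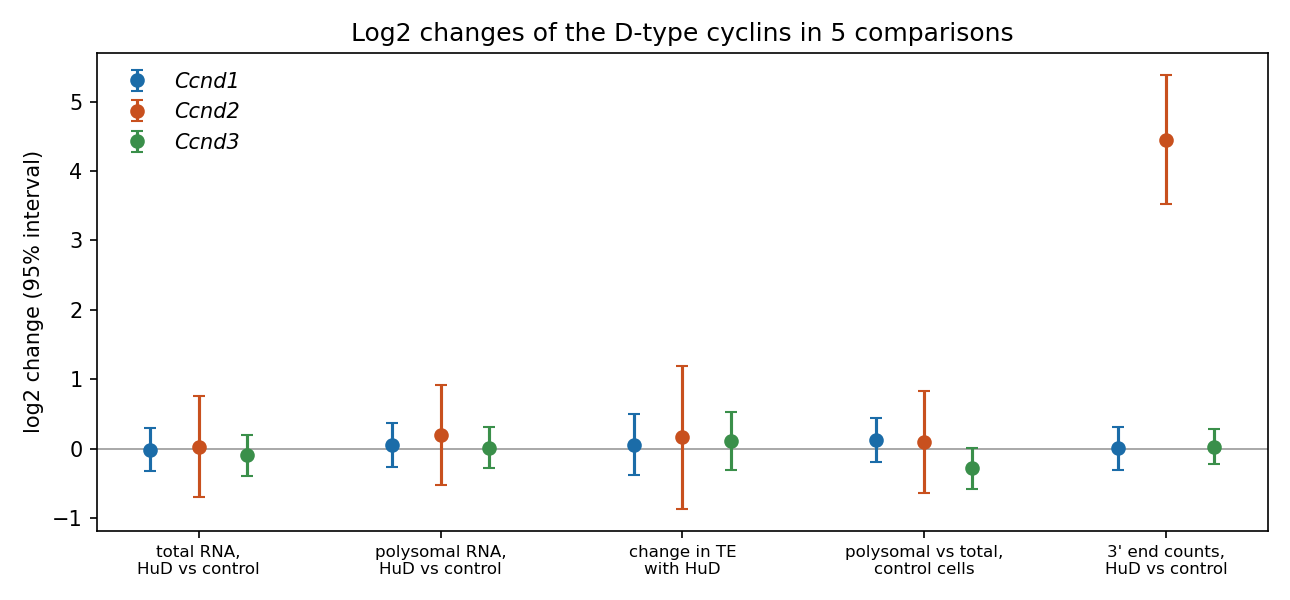
Log2 changes of Ccnd1, Ccnd2 and Ccnd3 in 5 comparisons, with bars for the 95% interval from edgeR. The 3′ end counts of Ccnd2, the value with which the family was chosen, lie at 4.45. All other values lie between -0.28 and 0.20.

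The members stood at very different levels. Per length, as FPKM (CPM per kilobase of exon) in total RNA of control cells, *Ccnd1* was at 188 and 226, *Ccnd3* at 11.3 and 10.6, and *Ccnd2* at 1.07 and 1.52. The values of the members did not overlap, and *Ccnd1* was 18.9 times *Ccnd3*, which was 8.46 times *Ccnd2*. Per length of the longest annotated transcript these ratios were 10.5 and 12.9, in the same order of genes. Of 12923 protein coding genes *Ccnd1* held rank 202 by FPKM, *Ccnd3* rank 4923 and *Ccnd2* rank 10323. In HuD cells the FPKM values were 192 and 220, 10.6 and 9.95, and 1.03 and 1.62 in the same order of genes. The catalytic partner *Cdk4* was at 344 FPKM in control cells and *Cdk6* at 1.18 FPKM. *Rb1*, the substrate, was at 3.27 FPKM.

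By Pearson's r of log2 CPM over the 8 libraries of total and polysomal RNA, among genes with a mean of at least 10 CPM, *Ccnd1* was most like *Msmo1* (0.987), *Sgpp1* (0.983) and *Cdk8* (0.982). *Ccnd2* was most like *Adrbk2* (0.992), *Tub* (0.986) and *Setd3* (0.981). *Ccnd3* was most like *Bloc1s4* (0.991), *Crat* (0.987) and *Ndufa3* (0.987). Within the family r was 0.93 between *Ccnd1* and *Ccnd2*, -0.79 between *Ccnd1* and *Ccnd3* and -0.64 between *Ccnd2* and *Ccnd3*. The 8 points share 2 replicate numbers, by which *Ccnd1* and *Ccnd2* were ordered alike and *Ccnd3* the other way.

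CRAC listed none of the 3 mRNAs as bound by HuD. The table holds 2868 unique windows, each with at least 6 covering reads and 3 deletions (the trace of a crosslink) in HuD cells, and *Ccnd1*, *Ccnd2* and *Ccnd3* had 0 windows each. Of the 12953 protein coding genes with RNA-Seq counts, 9.9% were listed. The share listed moved with the level, at 34.1% of the 217 genes within 1.5-fold of the FPKM of *Ccnd1*, 10.8% of 2639 for *Ccnd3* and 2.12% of 1178 for *Ccnd2*. The authors pooled the replicates and the depth of the CRAC libraries is unknown, so binding below the limit of the table was not detectable.

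The 3′ UTRs hold letters of the kind that ELAV proteins recognize, as most 3′ UTRs do. That of *Ccnd1* is 2676 nt long with 5 copies of AUUUA, the core of AU-rich elements, searched on the transcript strand with overlaps allowed. That of *Ccnd2* is 5173 nt long, longer than 96.2% of 3′ UTRs, with 2 copies, and that of *Ccnd3* is 915 nt long with 1 copy. Of 12782 protein coding genes, taking the longest annotated 3′ UTR of each, 68.8% held at least 1 copy. Per kb, AUUUA occurred 1.87 times in *Ccnd1*, 0.39 times in *Ccnd2* and 1.09 times in *Ccnd3*. The median was 1.25 per kb over all genes and 2.19 per kb over the genes listed in the CRAC table. The 230 distinct heptamers that the CRAC table lists on protein coding genes occurred 26.9 times per kb in the 3′ UTR of *Ccnd1*, 25.3 times in *Ccnd2* and 16.4 times in *Ccnd3*. The median was 24.1 per kb over all genes and 33.4 per kb over the genes listed in the CRAC table, from which the heptamers were taken, and 98.3% of all genes held at least 1. A match is a description of the letters, not a site.

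Around the family, 63 genes in 6 lists were followed, of which 60 had RNA-Seq counts. In total RNA, polysomal RNA and TE, 0 of these passed an adjusted p under 0.05 between HuD and control cells in edgeR. The number of all genes with an unadjusted p under 0.05 in total RNA was 394, with 1.78% of genes higher and 0.865% lower, and in polysomal RNA 622, with 2.29% higher and 1.89% lower. DESeq2 called 1 gene in total RNA, 3 in polysomal RNA and 0 for TE.

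Among the kinases and inhibitors that act on D-type cyclins, 4 of 8 had a negative log2 change in total RNA, with a median of -0.02. *Cdk4* was 1118 ± 8.71 CPM (SD, n = 2) in control cells and 959 ± 23.6 CPM in HuD cells, a log2 change of -0.22 ± 0.09 (adjusted p = 1.00). In polysomal RNA its log2 change was -0.23 ± 0.09 (adjusted p = 0.969). *Cdk6* stood at 0.01 ± 0.15 in total RNA. *Cdkn2c*, an inhibitor of Cdk4 and Cdk6, was at -0.26 ± 0.09 in total RNA. *Cdkn1a*, the p21 inhibitor, was at 0.40 ± 0.10 in polysomal RNA, and both had an unadjusted p under 0.05 only. *Cdkn1a* was at 0.17 ± 0.10 in total RNA and went the other way in 3′ end counts, at -0.36 ± 0.17. *Cdkn2c* was at -0.17 ± 0.09 in polysomal RNA and -0.27 ± 0.38 in 3′ end counts. In 3′ end counts *Cdk4* was at -0.02 ± 0.20.

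The targets downstream of the family had negative log2 changes of small size, none of which passed the adjusted threshold. Of 14 genes of S phase that E2F controls, 14 had a negative log2 change in total RNA, with a median of -0.16, against 51.3% of all genes with a median of -0.00389. In polysomal RNA 14 of 14 were negative as well, with a median of -0.22, against 51.6% of all genes. The changes ran from -0.25 to -0.08 in total RNA and from -0.36 to -0.02 in polysomal RNA. In each of the 2, some changes were smaller than their SE. *Pcna*, the sliding clamp of DNA polymerase, was at -0.24 ± 0.08 in total RNA, and *Cdc45*, a subunit of the replicative helicase, at -0.20 ± 0.09. In polysomal RNA *Cdc6*, which loads that helicase, was at -0.36 ± 0.16 and *Mcm3*, a subunit of it, at -0.31 ± 0.14. At an unadjusted p under 0.05, *Pcna* and *Cdc45* were the 2 genes of the list in total RNA, and *Cdc6*, *Mcm3* and *Cdc45* were among those in polysomal RNA. The lists were chosen with earlier results of these data known, and the genes of a list are not independent observations. Genes outside the lists also had changes of this size, and whether the shift is particular to S phase genes was not tested. In bulk samples fewer cells of a kind and less RNA per cell cannot be told apart.

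Of the later cyclins and their kinases, 7 of 7 were negative in total RNA (median -0.13) and 6 of 7 in polysomal RNA (median -0.15). *Cdk2*, the kinase partner of cyclins E and A, was at -0.30 ± 0.10 in total RNA and -0.34 ± 0.10 in polysomal RNA. Of the pocket proteins and E2F factors, 12 of 13 were negative in total RNA (median -0.08) and 10 of 13 in polysomal RNA (median -0.10). *Rb1* was at -0.06 ± 0.13 in total RNA. In total RNA 5 of 10 genes for the turnover of D-type cyclins were negative, and 4 of 8 for proteins that bind AU-rich elements. In polysomal RNA these were 4 of 10 and 6 of 8, and in 3′ end counts 6 of 8 and 4 of 7.

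In the 3′ end counts 0 genes of the 6 lists passed the threshold in edgeR without the block. Of the S phase genes 8 of 8 with 3′ end counts were negative (median -0.30), and of the later cyclins and kinases 5 of 5 (median -0.30). Of all genes 50.4% were negative. With the replicate block 3 genes of the lists fell. These were 1 of 11 pocket protein and E2F genes, 1 of 5 later cyclins and kinases and 1 of 8 S phase genes. In the other lists 0 of 7, 0 of 8 and 0 of 7 genes were called, and of all genes 2.61% were called in either direction. The 3 genes that fell were *E2f2* at -0.67 (adjusted p = 0.0140), *Cdk2* at -0.64 (adjusted p = 0.0204) and *Cdc45* at -0.62 (adjusted p = 0.0194). The HuD and control libraries of these 3′ ends are not those of total RNA.

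**Figure D5:**
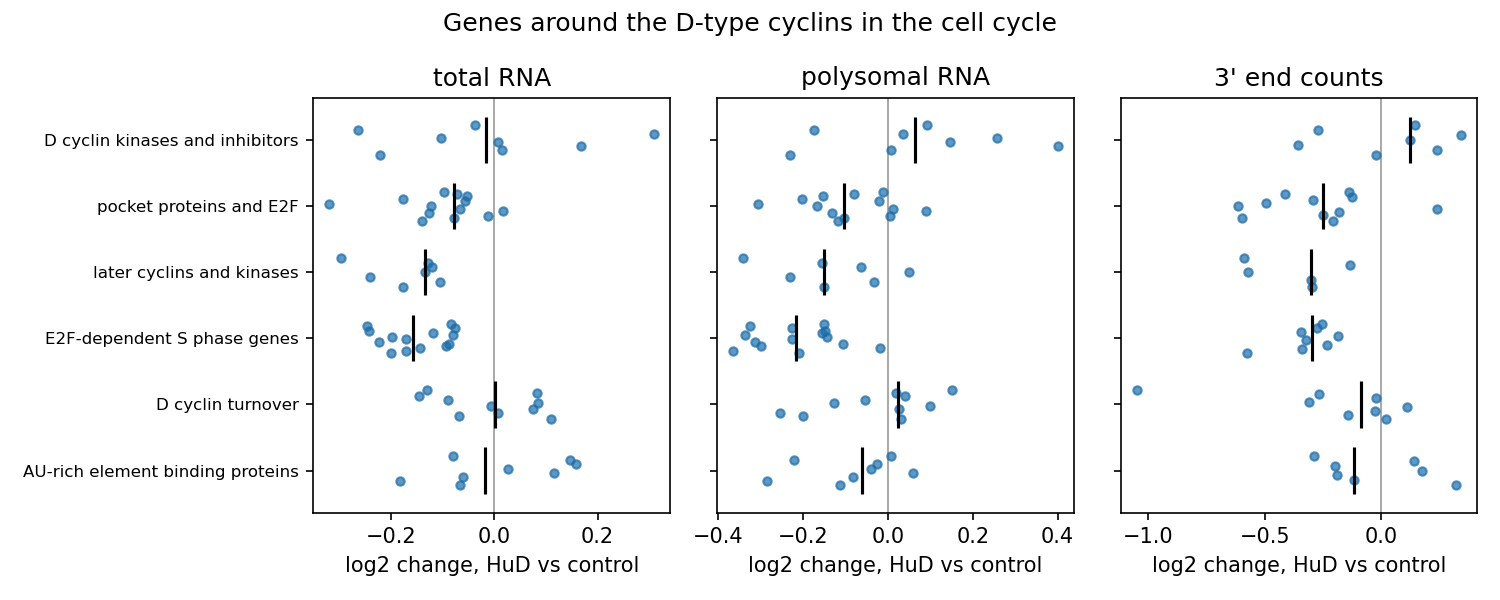
Log2 change between HuD and control in total RNA, polysomal RNA and 3′ end counts for the genes of 6 lists around the D-type cyclins, with a point for each gene and a black line at the median of its list. The S phase genes lie left of 0 in all 3 panels, with medians of -0.16, -0.22 and -0.30.

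CRAC listed 5 of the 63 genes, against 9.9% of protein coding genes with RNA-Seq counts, a share near the background. The windows of these 5 genes are given as values. *Gsk3b*, whose kinase marks cyclin D1 for degradation, had 5 windows, of which 4 lie in the 3′ UTR. *Zfp36l2*, which destabilizes mRNAs with AU-rich elements, had 3 windows in the 3′ UTR, the most covered with 71 reads and 47 deletions. *Zfp36*, of the same family, had 1 window with 9 reads, *Elavl1*, the HuR gene, had 1 with 20 reads, and *Cdkn2d*, an inhibitor of Cdk4, had 1 with 14 reads. None of these windows had control coverage.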

How the data were processed

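Per the labels and the study's methods, the authors aligned RNA-Seq, POL-Seq and 3′ end reads to GRCm38.p4 with STAR 2.5.3a and deposited counts per gene or per polyadenylation site, not normalized. For 3′ ends, the authors counted reads starting within 10 nt of a known site. For CRAC, the authors aligned with TopHat2 2.0.14, pooled replicates, and deposited the coverage signal in reads, the count of deletions, a combined p-value and a motif score of each window. The p-value served only as an alternative threshold and the score was not used.

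The members and gene lists were chosen with earlier results of these data known. Genes named beyond the members were *Elavl4*, *Cdk4*, *Cdk6*, *Rb1*, at most 4 genes a list with the smallest p-value past the threshold, and the 3 genes most like each member by Pearson's r. List genes with only an unadjusted p under 0.05 were named after their values were seen, and 1 gene of the lists is not reported here by itself.

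The 18577 rows of 3′ ends were reduced to 14536 unique sites, and sites of a gene within 20 nt to 11338, each with the count of its highest site, summed over 9621 genes. Differences in counts were fitted with edgeR 4.0.16 in R 4.3.3 (TMM, filterByExpr, quasi-likelihood test, Benjamini-Hochberg adjustment at 0.05). All 8 libraries of total and polysomal RNA shared 1 fit, and TE was the interaction of fraction and HuD. Site usage was tested with diffSpliceDGE. The deposited counts were scaled to CPM and FPKM. Same-numbered 3′ end libraries deviated together (Pearson's r of 0.400, 0.658 and 0.515 across genes), so the replicate block is given beside those results. DESeq2 1.42.0, other normalization, no filter, the block and leaving out libraries were alternatives. The procedures were tested on simulated data. Letters and annotations came from GENCODE vM21 (GRCm38). Python 3.11.15, pandas 2.3.3 and matplotlib 3.10.9 were used.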

Additional observations from a re-analysis of the deposited data

How the results depend on the processing

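Except as given here, the log2 changes of the 3 cyclins moved by less than their SE under other normalization, no filter, DESeq2, the replicate block and fits of the groups compared only. The number of genes past the threshold moved most. DESeq2 called 1 gene in total RNA, 3 in polysomal RNA, 67 between the fractions and 34 in 3′ ends. With the replicate block 41 genes were called between the fractions, 251 in 3′ ends and 1 site in usage. A fit of only the groups compared gave 1 in total RNA and 0 between the fractions, and unmerged sites gave 1 in usage. Without each library in turn, the numbers ranged over 0 to 0 in total RNA, 0 to 372 in polysomal RNA, 0 to 47 for TE, 0 to 2145 between the fractions, 2 to 11 in 3′ ends and 0 to 1 for usage. The 372, 47 and 2145 all came without control polysomal replicate 1, the 0 between the fractions without control total replicate 1, and in 3′ ends the 11 without HuD-labelled replicate 2 and the 2 without control replicate 1. The lone gene called otherwise came without control polysomal replicate 2, the lone site in usage without control 3′ end replicate 2, and without control total replicate 2 the fractions gave 2 genes. The causes were not tested.

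Leaving out each library moved the log2 change of *Ccnd1* over -0.14 to 0.13 in total RNA, -0.0697 to 0.20 in polysomal RNA, -0.07 to 0.20 for TE, -0.0166 to 0.26 between the fractions and -0.07 to 0.13 in 3′ ends. For *Ccnd2* the ranges were -0.33 to 0.32, -0.22 to 0.59, -0.26 to 0.56, -0.29 to 0.44 and 4.10 to 4.82. For *Ccnd3* they were -0.14 to -0.05, -0.18 to 0.27, -0.089 to 0.36, -0.53 to -0.0796 and -0.03 to 0.09, and -0.48 to -0.0329 for the use of its first-intron site. The share of that site ranged over 0.69% to 0.95% in control libraries and 0.62% to 0.76% in those labelled HuD, and it was 0.41% and 0.33% with unmerged sites, where reads near 2 listed sites count for both. Per length of the longest annotated transcript, *Ccnd1*, *Ccnd2* and *Ccnd3* were at 261, 1.93 and 24.9 FPKM in control cells, and per length of all exons the libraries gave 188 to 226, 1.07 to 1.52 and 10.6 to 11.3 FPKM, so that *Ccnd1* was highest and *Ccnd2* lowest by either length. The CRAC value stayed at 0 for deletions, for windows with a p-value under 0.05 and for the most covered window.

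In total and polysomal RNA only 2 numbers are shared between groups (r of 0.335 and 0.279), and the labels do not say that they pair cultures. Between the fractions r was 0.387 in control cells and 0.323 in HuD cells. With the block the SE of *Ccnd2* was 0.09 in place of 0.32 in total RNA and in polysomal RNA. For TE it was 0.13 in place of 0.46. The fold of the *Ccnd2* 3′ end rests on 3 to 10 control counts a library.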

Other observations

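Other cyclin genes were looked up in CRAC, and those named were chosen after their values were seen. Of 24 genes with a cyclin symbol and RNA-Seq counts, the D-type cyclins included, 2 were listed, which is near the 9.9% of all protein coding genes. *Ccni*, an atypical cyclin, had 21 windows with 5726 covering reads and 243 deletions in HuD cells over all of them, against 2 control reads, and its most covered window had 669 reads. *Ccny*, a membrane-bound cyclin, had 1 window with 48 reads and 37 deletions. Their log2 changes with HuD in total RNA were 0.09 ± 0.16 and 0.00 ± 0.10 (SE, n = 2 and 2), and in polysomal RNA 0.00 ± 0.17 and 0.07 ± 0.10, with 0 of the 2 past the adjusted threshold in edgeR.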
